A study of Mus musculus with 22 samples.

Results

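The comparison described here sets colon epithelium of untreated mice that lack the polymeric immunoglobulin receptor (pIgR-KO, group KO_untreated, 6 arrays) against colon epithelium of untreated wild-type mice (group WT_untreated, 5 arrays). These 11 arrays were taken by their labels from a series of 22. The other 11 are arrays of pIgR-KO mice (KO_antibiotic, 6) and wild-type mice (WT_antibiotic, 5) given antibiotics for 17 days, and they are used only where named. The strain was BALB/c throughout, with ages of 6 to 10 weeks and a male label on every array. The labels give neither the allele of the knockout nor the antibiotics, and they do not say whether the wild-type mice were littermates or whether an array held 1 mouse or several. Biotin-labelled cRNA was hybridised to 1-colour Illumina mouse bead arrays with 45281 probes. Per the labels, the cells were released from colon pieces on a shaker in 20 mM EDTA for 25 min, and no sorting step is named.

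The polymeric immunoglobulin receptor sits on the basolateral side of epithelial cells, where it binds the dimeric IgA and pentameric IgM made by plasma cells of the gut wall. It carries them across the cell and is cleaved at the apical surface, which releases secretory antibody into the lumen. Without it, secretory IgA hardly reaches the gut surface, and the epithelium meets gut microbes without that coat. The colon epithelium itself holds absorptive colonocytes, mucus-making goblet cells, chemosensory tuft cells, enteroendocrine cells and dividing crypt cells.

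Levels are log2 values after background correction and quantile normalisation, on which a probe at background lies at about 4 to 5. A log2 difference is KO_untreated minus WT_untreated, and "rose" and "fell" are used for an adjusted p under 0.05 in a limma fit adjusted over all 19993 tested probes. Between 16366 and 18388 probes were detected per array among the 11. The 16 epithelial identity markers, among them Epcam, Cdh1 and Vil1, were detected on all 11 arrays, and their mean level was 10.98 to 11.21 on KO_untreated arrays and 10.95 to 11.26 on WT_untreated arrays. Their single differences ran from -0.86 to 0.72, and 1 of them, the keratin gene Krt18, rose (log2 0.72, adjusted p = 0.0109), while 0 fell. No marker of the B cell, T cell or myeloid lists passed the test, and Cd4, Cd8a, Adgre1, Itgam, Jchain, Col1a1 and Pdgfra were undetected on all 11. The summed linear signal of the T cell list was 2451 to 4005 on KO_untreated arrays and 1909 to 2883 on WT_untreated arrays, and that of the B cell list 207 to 900 and 463 to 720 in the same order. In bulk samples such as these, fewer cells of a type and less RNA per cell cannot be told apart.

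KO_untreated 1 stood apart from the other arrays. It lay at -58.5 on the first principal component of the 11 arrays, which took 36.7% of the variance, with the other KO_untreated arrays at -34.5 to -10.7 and WT_untreated arrays at 22.9 to 37.5. Its description is a plain number, whereas the descriptions of the other 5 KO_untreated arrays end in a suffix that none of the other 16 arrays of the series carries. KO_untreated 1 and 2 have the same number apart from the suffix, as do KO_untreated 6 and WT_untreated 3, and the labels do not say what the number stands for. The correlation between KO_untreated 1 and 2 was 0.963, below the highest of 0.987 between any pair of the 11 arrays. The labels do not explain the suffix, and for those 5 arrays the suffix and the genotype cannot be told apart. Without KO_untreated 1, 856 probes passed in place of 2180, of which 846 were among the 2180. With KO_untreated 1 as the only KO_untreated array, 225 passed.

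The targeted gene checked the labels. Pigr levels had a lowest value of 8.93, a median of 10.19 and a highest value of 10.73 on the KO_untreated arrays, against 11.78, 11.74, 12.50, 11.62 and 11.61 on the WT_untreated arrays. Every KO_untreated array lay below every WT_untreated array. The difference was 3.62-fold (log2 -1.86, SE 0.30, adjusted p = 0.00131), and the remaining signal was far above background on all 6 KO_untreated arrays. The files do not say where in the transcript the probe lies, so it cannot be told whether it reads the altered part of the gene.

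**Figure D1:**
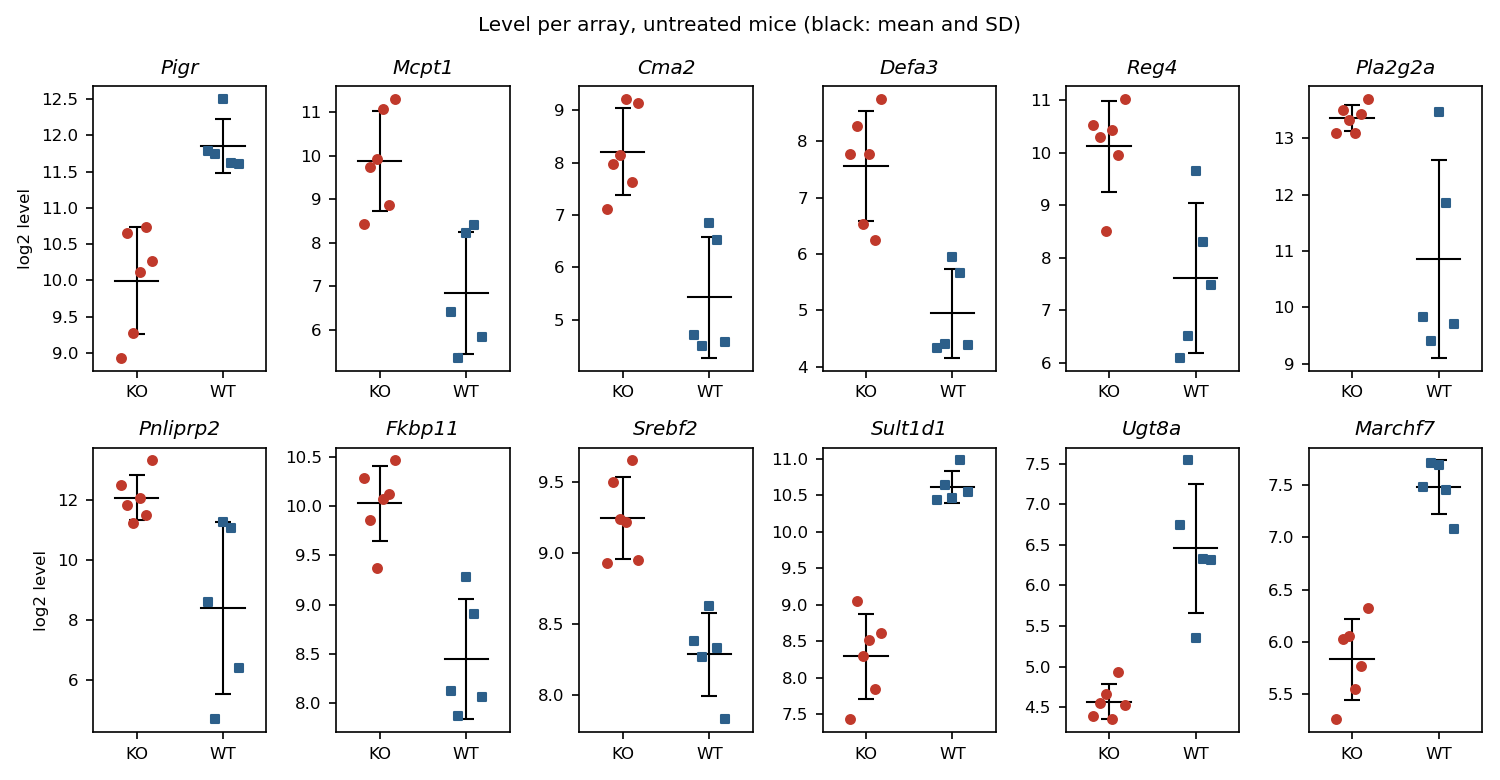
Log2 level (vertical axis) of 12 genes on each of the 6 KO_untreated arrays (red circles) and the 5 WT_untreated arrays (blue squares), with the mean as a long bar and the SD as an error bar. Pigr, Sult1d1, Ugt8a and Marchf7 are lower on every KO array than on any WT array, while for Pla2g2a, Reg4 and Pnliprp2 at least 1 WT array lies within the KO range.

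Across the genome the 2 groups differed broadly. Of 19993 probes, 2180 passed (10.9%), 1110 of them higher in KO_untreated (5.55%) and 1070 lower (5.35%). Taken as 10705 named genes, each read through its brightest tested probe, 671 rose (6.27%) and 615 fell (5.74%). More than 2-fold changes were more often falls: 180 genes fell and 82 rose by that much. The median difference of all genes was 0.05, and 516 genes had every KO_untreated array above every WT_untreated array (4.82%) while 578 had every one below (5.4%). Where a gene had 2 or more probes past the threshold, as 266 genes did, the probes had 1 direction in all but 2 genes. With median scaling over all probes in place of quantile normalisation, 319 probes passed, 240 higher and 79 lower, and the median of all genes was 0.13. Of the genes described in the following paragraphs, the calls of Retnlb, Clps, Reg3a, Fcer1a, Cma1, Gfi1, Spdef, Duox2, Srd5a3, Aldh1a1, Kcnn4, Creb3l4, Sh2d7, Ltc4s, Edem2, Sel1l, Pdia4, Pdia5, Pdia6, Psat1, Aldh18a1, Slc1a4, Eif4ebp1, Atf5, Cebpb, Slc6a9, Aars, Tars, Cth, Pmvk, Lss, Cyp51, Dhcr7, Abcg5, Abcg8, Papss2, Slc26a2, Sult2b1, Sulf2, Ugt2b34, Ugt2b36, Ugt1a7c, the 4 Cyp genes, Akr1c12, Slc40a1, Fxyd3, Sgk1, Prkg2, Cftr, Casp1, Casp4, Usp53, Zranb2, Pof1b, Sh3bgrl and Sema3c were lost under it, with no change of sign. The rises counted in lists were then 3 for mast cells, 4 for Paneth-type genes, 7 for tuft cells, 4 for goblet cells, 3 for protein folding, 5 for ATF4 targets and 4 for sterol synthesis.

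**Figure D2:**
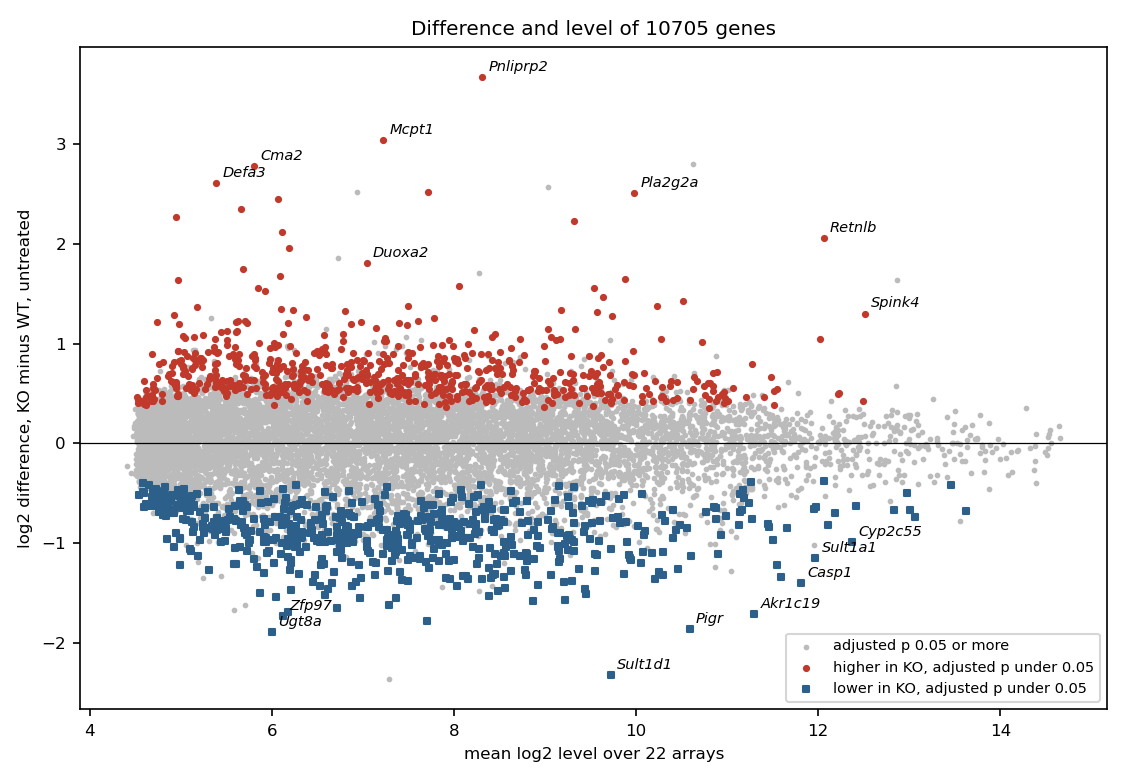
Log2 difference, KO_untreated minus WT_untreated (vertical axis), against the mean log2 level over 22 arrays (horizontal axis) for 10705 genes, each a point. Red circles are the 671 genes that rose, blue squares the 615 that fell, and the largest rises include Pnliprp2, Mcpt1, Cma2 and Defa3.

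Mast cell protease genes were among the largest rises. Of 9 tested genes of the mast cell list, 5 rose and 0 fell, with a median difference of 0.94 against 0.05 for all genes. Here and below, the share of all genes is 6.27% for rises and 5.74% for falls. Mcpt1, which encodes a chymase of mucosal mast cells, had levels with a lowest value of 8.42, a median of 9.82 and a highest value of 11.30 in KO_untreated, against 6.41, 5.35, 8.21, 8.41 and 5.84 in WT_untreated. The groups did not overlap, though the lowest KO_untreated array and WT_untreated 4 were nearly level. The difference was 8.21-fold (log2 3.04, SE 0.61, adjusted p = 0.00536).

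Cma2, another chymase gene, had levels with a lowest value of 7.12, a median of 8.06 and a highest value of 9.22 in KO_untreated, against 4.70, 4.49, 6.84, 6.53 and 4.57 in WT_untreated (6.89-fold, log2 2.78, SE 0.44, adjusted p = 0.000916). Here too WT_untreated 3 and 4 stood above the other WT_untreated arrays, which were near background. The chymase gene Mcpt4 rose by less (log2 1.22, adjusted p = 0.0102), and KO_untreated 1 alone lay within the WT_untreated range. Fcer1a, the ligand-binding chain of the IgE receptor, rose too (log2 1.08, adjusted p = 0.0205), but did not pass when WT_untreated 5 was left out (adjusted p = 0.0519). The fifth gene of the list that rose was the chymase gene Cma1 (log2 0.88, adjusted p = 0.0399), which passed only with all arrays or without KO_untreated 2 or 3 or WT_untreated 3 (adjusted p up to 0.0925 without the others).

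Other mast cell genes did not pass or were undetected, though 8 of the 9 tested had a difference above 0. Kit, the receptor for stem cell factor, differed by 0.47 (adjusted p = 0.252), and the carboxypeptidase gene Cpa3 by 0.94 (adjusted p = 0.0725). Tpsab1 and Tpsb2, which encode tryptases, Ms4a2, a chain of the IgE receptor, and Mcpt2 and Mcpt8 were undetected on all 11 arrays. The summed signal of the list, on the linear scale above background, was 1267 to 4525 on KO_untreated arrays and 499 to 1218 on WT_untreated arrays. Without WT_untreated 5, 3 of the 9 genes rose. The part of mast cell numbers in these values was not tested.

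Genes usually seen in Paneth cells, which the colon normally lacks, included several large rises. The list holds secreted defence proteins and also transcription factors of secretory cells. Of 14 tested, 6 rose and 0 fell, with a median of 1.45. Defa3 encodes an alpha-defensin, a small peptide that kills bacteria by piercing their membranes. Its levels had a lowest value of 6.25, a median of 7.78 and a highest value of 8.75 in KO_untreated, against 4.34, 4.40, 5.95, 5.66 and 4.38 in WT_untreated. The probe was detected on all 6 KO_untreated arrays and on 2 of the 5 WT_untreated arrays, and the groups did not overlap (6.12-fold, log2 2.61, SE 0.35, adjusted p = 0.000223).

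Defa20, a second alpha-defensin gene, was undetected on all 5 WT_untreated arrays and detected on all 6 KO_untreated arrays, at a lowest value of 5.15, a median of 7.11 and a highest value of 7.65. It was at least 3.88-fold higher in KO_untreated (adjusted p = 0.00016). Detection on 5 or more arrays was needed for testing, and the KO_untreated arrays alone met this. The p-value, and the place of Defa20 among the rises counted, are therefore no separate support. Defa23 rose as well (log2 1.64, adjusted p = 0.00163). Defa3 and Defa23 were each detected on 6 KO_untreated and 2 WT_untreated arrays, so for them too the KO_untreated arrays alone met the filter. Their p-values, and their places among the 6 rises, are no separate support either. Alpha-defensin genes are near-identical copies of each other, so the probes may not tell them apart.

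Pla2g2a, which encodes a secreted phospholipase that kills bacteria, had levels with a lowest value of 13.10, a median of 13.39 and a highest value of 13.70 in KO_untreated, against 9.83, 9.41, 13.47, 11.86 and 9.71 in WT_untreated (5.70-fold, log2 2.51, SE 0.50, adjusted p = 0.00536). The KO_untreated arrays were tightly grouped and the WT_untreated arrays spread widely, with WT_untreated 3 inside the KO_untreated range. The transcription factor genes Gfi1 and Spdef, which direct secretory cells, also rose (log2 1.27 and 0.92), but Gfi1 did not pass without WT_untreated 1 or 2 (adjusted p up to 0.0529), nor Spdef without any 1 of 8 arrays, those other than KO_untreated 3 and WT_untreated 3 and 4 (up to 0.128). Lyz1, the lysozyme of Paneth cells, did not pass (log2 -0.13, adjusted p = 0.866).

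Goblet cell genes were divided. Of 28 tested, 8 rose and 0 fell, with a median of 0.30. The main secreted products were not among the 8: the mucin gene Muc2 differed by 0.09 (adjusted p = 0.682), the trefoil factor gene Tff3 by -0.02 (adjusted p = 0.955), Zg16 by 0.05 (adjusted p = 0.779) and Clca1 by 0.35 (adjusted p = 0.166). Spink4, a protease inhibitor made by goblet cells, had levels with a lowest value of 13.93, a median of 14.10 and a highest value of 14.45 in KO_untreated, against 12.69, 12.07, 13.79, 13.25 and 12.35 in WT_untreated (2.46-fold, log2 1.30, SE 0.28, adjusted p = 0.00807). The groups did not overlap. Foxa3, a transcription factor of secretory cells (log2 0.71, adjusted p = 0.0112), and the transporter gene Slc12a8 (log2 1.05, adjusted p = 0.0129) rose too. The calpain gene Capn9 was detected on all 6 KO_untreated and 0 WT_untreated arrays and was at least 1.43-fold higher (adjusted p = 0.00521). As with Defa20, the KO_untreated arrays alone let it be tested, so that p-value is no separate support. Also past the threshold were Creb3l4 and the potassium channel gene Kcnn4, the last not without WT_untreated 4 (adjusted p = 0.0505). Spdef, named with the Paneth-type genes, and Retnlb complete the 8.

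Retnlb encodes RELM-beta, a goblet cell protein that acts on bacteria and parasites. Its levels had a lowest value of 14.44, a median of 14.57 and a highest value of 14.70 in KO_untreated, against 12.53, 10.31, 14.31, 13.86 and 11.51 in WT_untreated. Nothing overlapped, but WT_untreated 3 came within a small step of the KO_untreated arrays. The difference was 4.16-fold (log2 2.06, SE 0.65, adjusted p = 0.0447). That call was lost when any 1 of 9 arrays was left out, which were the 6 KO_untreated arrays and WT_untreated 1, 2 and 5 (highest adjusted p 0.125).

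Among the Reg lectins and other secreted antimicrobials, 5 of 22 genes rose and 1 fell, with a median of -0.03 that was 0.11 with median scaling over all probes. Reg4, a lectin of enteroendocrine and goblet cells, had levels with a lowest value of 8.5, a median of 10.37 and a highest value of 11.02 in KO_untreated, against 6.09, 6.51, 9.65, 8.29 and 7.48 in WT_untreated (5.73-fold, log2 2.52, SE 0.49, adjusted p = 0.00486). Only WT_untreated 3 reached into the KO_untreated range. Duoxa2, the maturation factor of the epithelial oxidase that makes hydrogen peroxide, rose 3.5-fold (log2 1.81, SE 0.30, adjusted p = 0.00173), with no overlap. The oxidase gene Duox2 (log2 0.84) and Lbp, the lipopolysaccharide-binding protein (log2 0.80, adjusted p = 0.0142), rose by less, and Duox2 did not pass without any 1 of 7 arrays (adjusted p up to 0.0955), KO_untreated 1, 4, 5 and 6 and WT_untreated 1, 2 and 5. Retnlb, counted with the goblet cell genes too, completes the 5 rises. Some genes are in more than 1 list, so the counts of different lists are not separate results.

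The antimicrobial lectin gene Reg3a went the other way. It had a lowest value of 4.42, a median of 4.87 and a highest value of 5.57 in KO_untreated, against 7.26, 8.37, 4.61, 6.69 and 6.45 in WT_untreated (3.24-fold lower, log2 -1.69, SE 0.47, adjusted p = 0.0262). WT_untreated 3 lay among the KO_untreated arrays. It did not pass when KO_untreated 4 or 5 or WT_untreated 1, 2 or 4 was left out (adjusted p up to 0.0732). Its relatives Reg3g (log2 -1.43, adjusted p = 0.0661) and Reg3b (log2 -1.02, adjusted p = 0.183) did not pass. The count of 5 became 3 without KO_untreated 1, 4, 5 or 6 or WT_untreated 1, 2 or 5.

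The WT_untreated arrays were uneven for these secreted products, and they were also divided on the second principal component of the 11 arrays. On that component, which took 16.6% of the variance, WT_untreated 3 and 4 lay at -34 and -20.1. WT_untreated 1, 2 and 5 lay at 13.5 to 28.1, and the KO_untreated arrays at -21.2 to 25.5. The cause of this division was not tested. Of the 15 genes with the largest rises, WT_untreated 3 was the highest WT_untreated array for 11, and it reached the KO_untreated range for 4. WT_untreated 1 and 2 reached that range for 0 of the 15. The 15 include genes whose products are not secreted, such as Slc29a4 and Rad9a. Several genes with large differences and a wide WT_untreated spread did not pass. Ang4, an antimicrobial ribonuclease of secretory cells, had levels of 13.42 to 14.21 in KO_untreated, against 11.92, 6.51, 13.96, 13.67 and 9.58 in WT_untreated (log2 2.80, adjusted p = 0.114). Itln1, the lectin intelectin, had levels of 10.93 to 12.46 in KO_untreated, against 9.24, 6.06, 11.30, 11.09 and 7.67 in WT_untreated (log2 2.57, adjusted p = 0.0773). For both, WT_untreated 3 and 4 lay within the KO_untreated range and WT_untreated 1, 2 and 5 well below it.

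**Figure D3:**
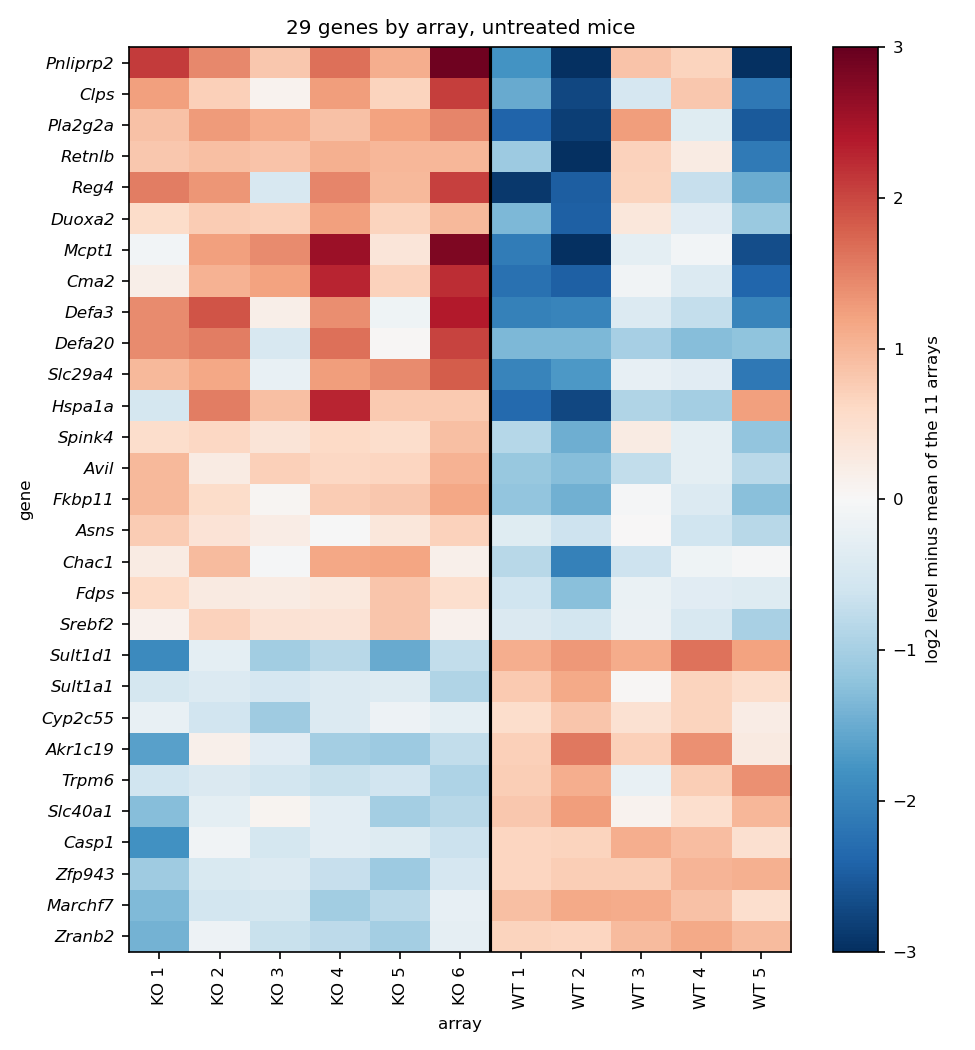
Log2 level minus the mean of the 11 arrays (colour, red high and blue low) for 29 genes (rows) on the 6 KO_untreated and 5 WT_untreated arrays (columns, KO left of the black line). WT 3 and WT 4 are paler than WT 1, 2 and 5 for secreted products such as Pla2g2a, Retnlb and Reg4, while for the genes at the foot that fell the WT side is mostly red.

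Lipid-digesting genes gave the largest single rise. Pnliprp2, a lipase that acts on milk fat and galactolipids, had levels with a lowest value of 11.22, a median of 11.95 and a highest value of 13.31 in KO_untreated, against 8.60, 4.69, 11.26, 11.06 and 6.39 in WT_untreated (12.7-fold, log2 3.67, SE 0.91, adjusted p = 0.0156). WT_untreated 3 overlapped the KO_untreated arrays, WT_untreated 4 came close, and the call was lost without WT_untreated 5 (adjusted p = 0.0508). The colipase gene Clps rose 4.68-fold (log2 2.23, SE 0.61, adjusted p = 0.0249), with WT_untreated 4 inside the KO_untreated range. It did not pass when KO_untreated 1 or WT_untreated 1, 2 or 5 was left out (adjusted p up to 0.0676).

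The other pancreatic-type enzyme genes did not pass. Of 12 tested, these 2 rose, 0 fell and the median was -0.23. The amylase gene Amy2a5 was at 4.25 to 5.38 in KO_untreated, against 4.41, 4.40, 4.35, 13.31 and 4.28 in WT_untreated, so WT_untreated 4 alone was high. The elastase gene Cela2a had levels of 4.48 to 4.97 in KO_untreated and 11.19 on WT_untreated 4, with the other WT_untreated arrays near background. Neither passed (adjusted p = 0.442 and 0.382). The lipase gene Pnliprp1 had levels of 7.71 to 9.26 in KO_untreated, against 5.2, 4.66, 7.17, 10.26 and 5.60 in WT_untreated (log2 1.86, adjusted p = 0.122), so that every KO_untreated array was above all WT_untreated arrays but WT_untreated 4. The part of pancreatic transcripts in the WT_untreated 4 values of Pnliprp2, Pnliprp1 and Clps was not tested.

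Several tuft cell genes rose. Tuft cells sense luminal signals through a taste-like cascade and make leukotrienes. Of 20 tested, 9 rose and 0 fell, with a median of 0.56. Avil, which encodes the actin-binding protein advillin, had levels with a lowest value of 6.35, a median of 6.79 and a highest value of 7.15 in KO_untreated, against 4.96, 4.83, 5.38, 5.82 and 5.29 in WT_untreated (2.95-fold, log2 1.56, SE 0.22, adjusted p = 0.000333). All KO_untreated arrays were above all WT_untreated arrays.

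Leukotriene genes of the list rose too. The part of other cells, mast cells among them, in their values was not tested. Alox5ap, the activating protein of 5-lipoxygenase, had levels with a lowest value of 6.55, a median of 7.11 and a highest value of 7.18 in KO_untreated, against 5.81, 5.24, 5.82, 5.57 and 5.77 in WT_untreated (log2 1.34, SE 0.24, adjusted p = 0.0029). Alox5 itself (log2 1.07, adjusted p = 0.00691), the cation channel gene Trpm5 of the taste cascade (log2 1.09, adjusted p = 0.0118) and its G protein subunit gene Gng13 (log2 0.97, adjusted p = 0.0137) also stood apart from every WT_untreated array. The tuft cell kinase gene Dclk1 rose (log2 0.97, adjusted p = 0.0155) with some overlap. Sh2d7 (log2 0.91), the leukotriene C4 synthase gene Ltc4s (log2 0.73) and the phospholipase gene Plcg2 (log2 0.60) complete the 9. Ltc4s did not pass without WT_untreated 5 (adjusted p = 0.065), nor Plcg2 without KO_untreated 1 or 3 or WT_untreated 2 or 5 (up to 0.0671). Without any 1 array, 7 to 9 of the 20 genes rose.

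Genes of the protein-folding machinery of the endoplasmic reticulum, through which secreted proteins pass, included rises and no falls. Of 30 tested, 8 rose and 0 fell, with a median of 0.33. Sdf2l1, a cofactor of the chaperone BiP, had levels with a lowest value of 8.45, a median of 8.84 and a highest value of 9.42 in KO_untreated, against 7.39, 7.38, 8.45, 7.66 and 7.20 in WT_untreated (2.39-fold, log2 1.26, SE 0.23, adjusted p = 0.00296). WT_untreated 3 was level with the lowest KO_untreated array and the other WT_untreated arrays were lower. Hyou1, a large chaperone (log2 1.10, adjusted p = 0.00293), Creld2 (log2 1.07, adjusted p = 0.00521) and Edem2, which marks misfolded proteins for disposal (log2 0.58, adjusted p = 0.0109), also rose. So did Sel1l, which serves the disposal of misfolded proteins (log2 0.62), and the disulfide isomerase genes Pdia4 (log2 0.56), Pdia5 (log2 0.83) and Pdia6 (log2 0.61). These 3 isomerase genes did not pass without KO_untreated 5 or WT_untreated 1, 2 or 5, nor Pdia5 and Pdia6 without KO_untreated 1, 4 or 6 (adjusted p up to 0.116), and the count was 5 without KO_untreated 5 or WT_untreated 1, 2 or 5.

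Fkbp11, a prolyl isomerase of secretory cells that is not in the list, rose 2.99-fold. Its levels had a lowest value of 9.37, a median of 10.10 and a highest value of 10.46 in KO_untreated, against 8.12, 7.87, 9.28, 8.90 and 8.06 in WT_untreated (log2 1.58, SE 0.26, adjusted p = 0.00131). Bhlha15, the transcription factor MIST1 of secretory cells, rose 2.88-fold (adjusted p = 0.00807), with WT_untreated 3 and 4 within the KO_untreated range. Both were chosen after their values were seen.

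The targets of ATF4, the transcription factor switched on when amino acids run short or unfolded proteins build up, and the genes of amino acid supply held many rises. Of 34 tested, 14 rose and 1 fell, against 6.27% and 5.74% of all genes, with a median of 0.49. The asparagine synthetase gene Asns had levels with a lowest value of 10.03, a median of 10.43 and a highest value of 10.81 in KO_untreated, against 9.68, 9.43, 10.06, 9.45 and 9.21 in WT_untreated (log2 0.88, SE 0.17, adjusted p = 0.00389). WT_untreated 3 just overlapped the lowest KO_untreated array.

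Members of the serine and one-carbon branch rose together: Phgdh, the first enzyme of serine synthesis (log2 0.90, adjusted p = 0.0105), Psat1, the second (log2 1.10, adjusted p = 0.0178), and the mitochondrial folate enzyme gene Mthfd2 (log2 0.98, adjusted p = 0.00634). The call of Psat1 was lost without KO_untreated 1 (adjusted p = 0.0504). Aldh18a1, which starts proline synthesis, rose as well (log2 0.84, adjusted p = 0.0127). Chac1, which breaks down glutathione, rose 2.52-fold (log2 1.33, SE 0.35, adjusted p = 0.0217), with no overlap between groups, but not when KO_untreated 5 or WT_untreated 2 was left out (adjusted p up to 0.0606). The other genes that rose were Slc1a4, Eif4ebp1, Atf5, Sars, Cebpb, Slc6a9, Aars and Tars, and Cth fell. Of these 9 genes only Slc6a9 passed whichever array was left out. The adjusted p reached 0.0545 for Sars without WT_untreated 4, 0.071 for Slc1a4 without KO_untreated 1 or WT_untreated 1 or 5, 0.0757 for Eif4ebp1 without KO_untreated 1 or WT_untreated 4 or 5, and 0.0878 to 0.129 for the other 5, each lost without 6 to 10 of the 11 arrays. The count of 14 was 7 without KO_untreated 1, 9 without KO_untreated 5, 9 without WT_untreated 2, and 8 without WT_untreated 4 or 5.

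The known response elements of these pathways were looked for in the promoters. The sequences are from RefSeq (GRCm38.p6), 250 bases before to 50 after each annotated start, 5′ to 3′ on the gene's own strand, searched on both strands. They are shown because these genes rose and hold the element, which is in capitals. The start is position 0, and positions give the first base of the match. The first pair hold the ATF4 element TGATGNAA, at -23 in Asns (chr6:7693160-7693459, minus strand) and, in reverse complement, at -193 in Chac1 (chr2:119350992-119351291, plus strand). The last holds the element of the unfolded protein response, CCAAT and CCACG with 9 bases of any kind between them, in reverse complement at -126 in Creld2 (chr15:88819396-88819695, plus strand).
Asns: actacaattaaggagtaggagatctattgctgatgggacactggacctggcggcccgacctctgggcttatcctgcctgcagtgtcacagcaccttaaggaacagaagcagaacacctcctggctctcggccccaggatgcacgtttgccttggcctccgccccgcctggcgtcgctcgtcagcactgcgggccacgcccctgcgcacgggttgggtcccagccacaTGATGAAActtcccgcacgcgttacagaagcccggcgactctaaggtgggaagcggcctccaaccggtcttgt
Chac1: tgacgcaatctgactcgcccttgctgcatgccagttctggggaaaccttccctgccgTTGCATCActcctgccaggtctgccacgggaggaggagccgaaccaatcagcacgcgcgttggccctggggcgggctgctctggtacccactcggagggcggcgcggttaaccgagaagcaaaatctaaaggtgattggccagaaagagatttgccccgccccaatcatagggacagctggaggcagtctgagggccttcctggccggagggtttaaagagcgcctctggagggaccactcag
Creld2: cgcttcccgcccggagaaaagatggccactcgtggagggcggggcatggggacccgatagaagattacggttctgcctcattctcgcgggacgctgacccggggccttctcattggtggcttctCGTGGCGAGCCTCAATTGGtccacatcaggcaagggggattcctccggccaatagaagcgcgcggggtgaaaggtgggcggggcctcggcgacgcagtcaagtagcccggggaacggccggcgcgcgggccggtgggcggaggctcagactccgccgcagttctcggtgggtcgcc
A gene was counted if any of its promoters held the element. The ATF4 element was in 5 of 13 matched genes of the list that rose (5 of 17 promoters). It was in 6 of 15 that did not rise (6 of 16 promoters), and in 3.97% of 32851 promoters. The unfolded protein response element was in 2 of 7 folding genes that rose (2 of 7 promoters). It was in 6 of 19 that did not (6 of 20 promoters), and in 0.119% of all promoters. The shares were alike in genes that rose and in the other members of each list, and were not tested. These matches describe the letters only.

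Some sterol synthesis genes rose. Of 22 genes of sterol synthesis and uptake, 8 rose and 2 fell, with a median of 0.40. Enzyme genes that did not pass include Sqle (log2 0.64, adjusted p = 0.0648), Msmo1 (log2 0.41, adjusted p = 0.243), Sc5d (log2 0.02, adjusted p = 0.959) and Idi1 (log2 -0.30, adjusted p = 0.554). Srebf2, which encodes the transcription factor SREBP2 of the pathway, had levels with a lowest value of 8.93, a median of 9.23 and a highest value of 9.65 in KO_untreated, against 8.38, 8.27, 8.63, 8.33 and 7.83 in WT_untreated (1.95-fold, log2 0.96, SE 0.16, adjusted p = 0.00163). The groups were fully apart. The farnesyl diphosphate synthase gene Fdps had levels with a lowest value of 11.18, a median of 11.33 and a highest value of 11.76 in KO_untreated, against 10.32, 9.67, 10.72, 10.59 and 10.53 in WT_untreated.

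The enzyme genes Mvk (log2 0.90, adjusted p = 0.00825) and Pmvk (log2 0.77, adjusted p = 0.0109), which phosphorylate mevalonate, and Mvd, Lss, Cyp51 and Dhcr7 of later steps, rose as well. Lss did not pass without KO_untreated 1 or 5 or WT_untreated 2 or 5 (adjusted p up to 0.0721), nor Cyp51 without any 1 of 8 arrays, those other than KO_untreated 1 and WT_untreated 3 and 4 (up to 0.112). The 2 genes that fell were Abcg5 (log2 -1.39, adjusted p = 0.0443) and Abcg8 (log2 -1.27, adjusted p = 0.0254), which together form the sterol exporter. WT_untreated 3 and 4 lay within the KO_untreated range for Abcg5, and the other 3 WT_untreated arrays were higher than all KO_untreated arrays. Neither passed when KO_untreated 1 or WT_untreated 1, 2 or 5 was left out, nor Abcg5 when any other KO_untreated array was (adjusted p up to 0.125 for Abcg5 and 0.0722 for Abcg8). The sterol element TCACNCCAC was in 0 of 7 matched genes that rose (10 promoters) and in 0 of 12 that did not (16 promoters). It was in 1.24% of all promoters.

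Sulfotransferases, which make small molecules soluble by adding sulfate, held the largest fall. Sult1d1, which acts on catecholamines and other phenols, had levels with a lowest value of 7.43, a median of 8.41 and a highest value of 9.06 in KO_untreated, against 10.44, 10.65, 10.46, 10.98 and 10.55 in WT_untreated. The WT_untreated arrays were close together and every KO_untreated array was far below them (5.00-fold lower, log2 -2.32, SE 0.29, adjusted p = 9.06e-05). Sult1a1, the phenol sulfotransferase, had levels with a lowest value of 10.82, a median of 11.27 and a highest value of 11.33 in KO_untreated, against 12.51, 12.87, 11.76, 12.39 and 12.26 in WT_untreated (log2 -1.15, SE 0.16, adjusted p = 0.000333).

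The sulfate list did not move one way. Of 29 tested, 4 rose and 4 fell. Papss2, which makes the sulfate donor, and the sulfate transporter gene Slc26a2 fell. The genes of sulfotransferases that act on glycans and glycolipids, Gal3st2 (log2 1.43, adjusted p = 0.00915) and Chst4 (log2 1.15, adjusted p = 0.00675), rose with no overlap. Sult2b1, which sulfates cholesterol (log2 0.84), and the sulfatase gene Sulf2 (log2 0.92) rose by less. Slc26a2 did not pass without KO_untreated 1 or WT_untreated 1, 2 or 5 (adjusted p up to 0.0698), Sult2b1 without KO_untreated 1 or 5 or WT_untreated 5 (up to 0.0671), nor Sulf2 without any 1 array but WT_untreated 3 (up to 0.125). The count of 4 rises was 2 without KO_untreated 1 or 5 or WT_untreated 5.

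Glucuronosyltransferases, a second route of detoxification and excretion, included falls and no rises. Of 11 tested members of the family, 0 rose and 4 fell, with a median of -0.74. Ugt8a, whose enzyme makes galactosylceramide rather than clearing drugs, had levels with a lowest value of 4.35, a median of 4.54 and a highest value of 4.94 in KO_untreated, against 6.74, 7.54, 5.35, 6.33 and 6.32 in WT_untreated (3.70-fold lower, log2 -1.89, SE 0.31, adjusted p = 0.00131). The KO_untreated arrays lay near background and the WT_untreated arrays did not. Ugt2b34 (log2 -1.28, adjusted p = 0.00753), Ugt2b36 (log2 -1.08, adjusted p = 0.00634) and Ugt1a7c (log2 -0.83, adjusted p = 0.00741), which add glucuronic acid to steroids, bile acids and drugs, fell by less.

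Of 29 cytochrome P450 genes, which oxidise lipids and drugs, 1 rose and 5 fell, with a median of -0.28, and the other 23 did not pass. Cyp2c55 had levels with a lowest value of 11.71, a median of 12.42 and a highest value of 12.61 in KO_untreated, against 13.30, 13.61, 13.22, 13.43 and 13.00 in WT_untreated (log2 -0.99, SE 0.24, adjusted p = 0.0148), with no overlap. Cyp2c67 (log2 -0.99, adjusted p = 0.0119) and Cyp3a13 (log2 -0.93, adjusted p = 0.011) also fell, and so did Cyp2c65 (log2 -1.09, adjusted p = 0.0179), whose call was lost without KO_untreated 1 (adjusted p = 0.0517). With median scaling over all probes in place of quantile normalisation, 0 of the 29 cytochrome genes and 1 of the 11 glucuronosyltransferase genes fell.

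Of 36 genes of steroid and retinoid metabolism, 1 rose (Srd5a3, log2 0.57) and 4 fell, with a median of -0.15, and 2 fell with median scaling over all probes. The 4 falls were those of 3 aldo-keto reductases, which act on steroids and prostaglandins, and of the retinaldehyde dehydrogenase gene Aldh1a1 (log2 -0.95, adjusted p = 0.023), which did not pass without KO_untreated 5 or WT_untreated 4 (adjusted p up to 0.061). Srd5a3 did not pass without any 1 of 9 arrays, those other than KO_untreated 3 and 6. Akr1c19 had levels with a lowest value of 8.95, a median of 9.68 and a highest value of 10.73 in KO_untreated, against 11.28, 12.14, 11.28, 11.95 and 10.84 in WT_untreated (3.26-fold lower, log2 -1.71, SE 0.33, adjusted p = 0.00492). The highest KO_untreated array was just below WT_untreated 5. Akr1c18, which inactivates progesterone (log2 -1.36, adjusted p = 0.016), and Akr1c12 (log2 -0.84, adjusted p = 0.00875) fell without overlap. Their relatives Akr1c14 (log2 -0.57, adjusted p = 0.245), Akr1b8 (log2 -0.49, adjusted p = 0.187) and Akr1b10 (log2 0.01, adjusted p = 0.974) did not pass. These genes are closely related, and the probes may share signal between them.

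Transport genes of the absorptive colonocyte were mixed. Of 45 genes of salt, water and acid-base transport, 2 rose and 4 fell, near the share of all genes. Trpm6, the magnesium channel of the colon, had levels with a lowest value of 6.90, a median of 7.24 and a highest value of 7.40 in KO_untreated, against 8.57, 8.91, 7.59, 8.56 and 9.20 in WT_untreated (2.57-fold lower, log2 -1.36, SE 0.26, adjusted p = 0.00447). Slc40a1, the iron exporter ferroportin, is not one of the 4, being counted in a separate list of zinc and iron genes. It had levels with a lowest value of 9.96, a median of 10.67 and a highest value of 11.31 in KO_untreated, against 12.05, 12.49, 11.34, 11.74 and 12.24 in WT_untreated (2.53-fold lower, log2 -1.34, SE 0.30, adjusted p = 0.0105). Neither gene's groups overlapped, and WT_untreated 3 was the lowest WT_untreated array for both. Of the transport list, Fxyd3, a regulator of the sodium pump, rose (log2 1.10, adjusted p = 0.00767), as did Kcnn4, given with the goblet cell genes. The chloride channel gene Cftr (log2 -1.03, adjusted p = 0.0368), the kinase gene Prkg2 (log2 -1.33, adjusted p = 0.0211) and the sodium transport kinase gene Sgk1 (log2 -0.74) also fell. Sgk1 did not pass without WT_untreated 4 (adjusted p = 0.0505), Prkg2 without KO_untreated 1 or WT_untreated 2 (up to 0.0588), nor Cftr without any 1 of 8 arrays (up to 0.0993), those other than KO_untreated 2, 4 and 6.

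The inflammatory caspase genes Casp1 and Casp4 fell. Casp1, which processes interleukin-1 and interleukin-18, had levels with a lowest value of 9.86, a median of 11.22 and a highest value of 11.59 in KO_untreated, against 12.33, 12.35, 12.77, 12.61 and 12.17 in WT_untreated (2.63-fold lower, log2 -1.40, SE 0.33, adjusted p = 0.0133). Casp4, the sensor of bacterial lipopolysaccharide inside the cell, was 2.89-fold lower (log2 -1.53, SE 0.38, adjusted p = 0.0168). For both genes every KO_untreated array was below every WT_untreated array. Casp1 was chosen after its values were seen, and neither call held with median scaling over all probes.

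Zinc finger protein genes, most of them transcriptional repressors, gave many small falls. Of 238 tested, 31 fell and 5 rose, though the median of the family was -0.08. Zfp97 had levels with a lowest value of 4.81, a median of 4.97 and a highest value of 6.20 in KO_untreated, against 6.55, 6.62, 7.29, 7.14 and 7.11 in WT_untreated (3.31-fold lower, log2 -1.73, SE 0.31, adjusted p = 0.00264). Zfp943 was 2.92-fold lower (log2 -1.55, SE 0.25, adjusted p = 0.00131). The count of 31 was 12 without KO_untreated 1 or 5, 18 without KO_untreated 4, 20 without WT_untreated 3, 11 without WT_untreated 4 or 5, and 4 with median scaling over all probes.

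Further large falls were in genes of the cell's own machinery. Marchf7, a ubiquitin ligase, had levels with a lowest value of 5.26, a median of 5.90 and a highest value of 6.33 in KO_untreated, against 7.48, 7.71, 7.69, 7.45 and 7.08 in WT_untreated (3.13-fold lower, log2 -1.65, SE 0.25, adjusted p = 0.00075). Usp53, a protein of tight junctions, was 3.44-fold lower (adjusted p = 0.0102), the splicing factor gene Zranb2 3.0-fold (adjusted p = 0.0151), Pof1b, an actin-binding protein of epithelia, 2.97-fold (adjusted p = 0.0154), Sh3bgrl 3.08-fold (adjusted p = 0.00536) and Txlng 2.93-fold (adjusted p = 0.00234). Groups did not overlap for any of these 6 genes. 

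Of the remaining large rises, Slc29a4, the plasma membrane monoamine transporter, had levels with a lowest value of 6.39, a median of 7.83 and a highest value of 8.43 in KO_untreated, against 4.64, 4.89, 6.37, 6.27 and 4.47 in WT_untreated (5.11-fold, log2 2.35, SE 0.33, adjusted p = 0.000333). Rad9a, a checkpoint clamp protein, was 5.45-fold higher (adjusted p = 0.00209), with WT_untreated 3 inside the KO_untreated range. Mfsd2a, a carrier of lysophospholipids, was 3.89-fold higher (adjusted p = 0.00492), and the heat shock gene Hspa1a 4.34-fold (adjusted p = 0.0126), with WT_untreated 5 among the KO_untreated arrays. Its copy Hspa1b was 3.35-fold higher (adjusted p = 0.0216) but did not pass when WT_untreated 1, 2 or 4 was left out (adjusted p up to 0.0574). Sema3c, a guidance protein, was 2.91-fold lower (adjusted p = 0.0218), but not past the threshold when KO_untreated 1 or WT_untreated 4 or 5 was left out (up to 0.0619).

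Lists with shares near those of all genes give no result about their members. They include 68 RNA splicing genes (6 rose, 5 fell), 71 respiratory chain subunit genes (1 rose, 5 fell), 214 solute carrier genes (18 rose, 10 fell) and 59 cytosolic ribosomal protein genes (2 rose, 0 fell). Of 42 genes of DNA replication and mitosis, 4 rose and 0 fell, with a median of 0.36. That count of 4 was 1 without KO_untreated 1 or 4 or WT_untreated 2 or 5, 2 without KO_untreated 5 or WT_untreated 4, and 0 with median scaling over all probes. Of 34 fatty acid oxidation genes 0 rose and 5 fell, and 0 fell without KO_untreated 1. Among 16 crypt base and stem cell genes 0 passed in either direction.

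**Figure D4:**
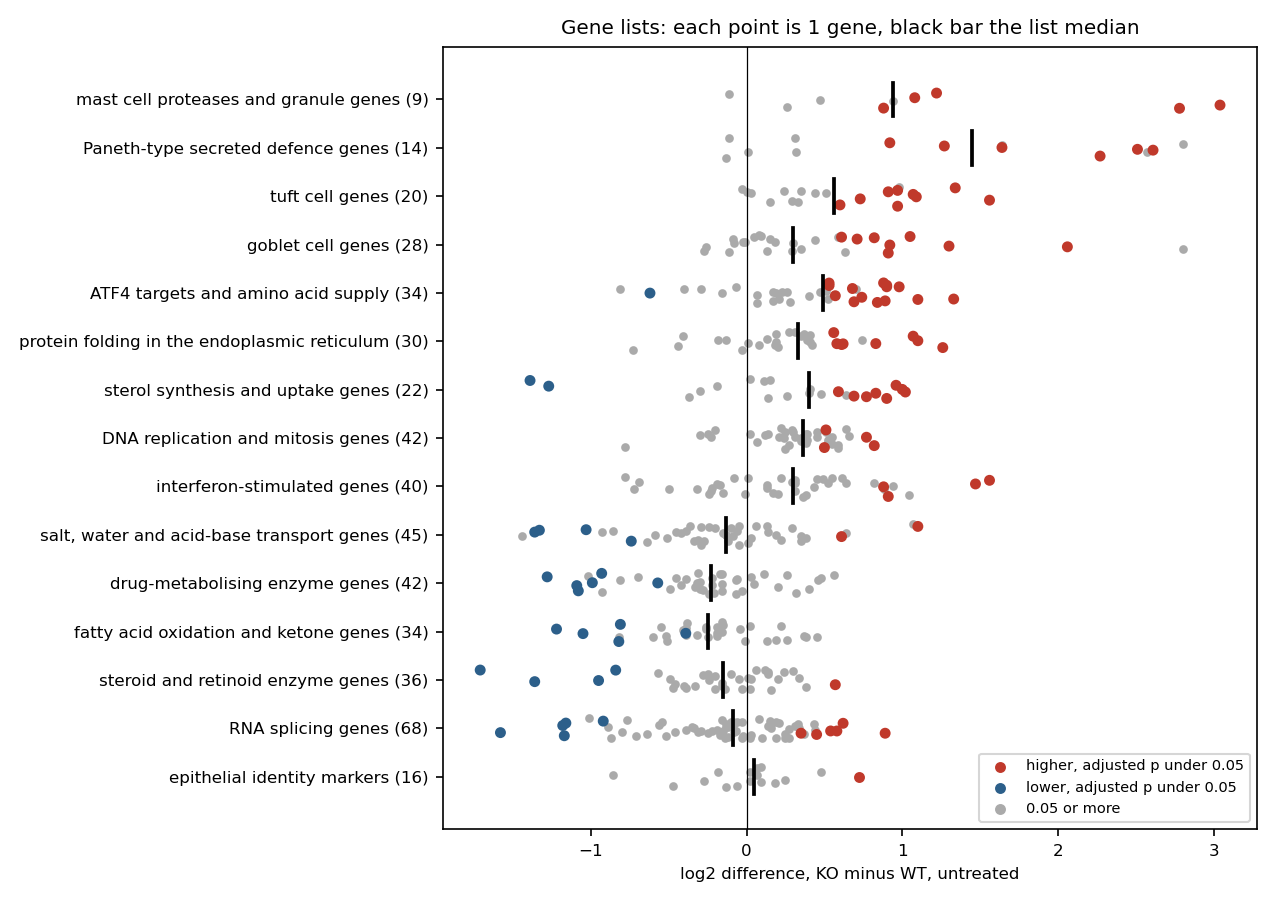
Log2 difference, KO_untreated minus WT_untreated (horizontal axis), of each tested gene in 15 lists (rows, number of genes in brackets), with red for genes that rose, blue for genes that fell, grey for the rest and a black bar at the list median. The mast cell, Paneth-type and tuft cell lists lie to the right, with medians of 0.94, 1.45 and 0.56, while the epithelial identity markers centre on 0.05.

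A few probes were detected in one genotype only. A probe of Pgk1, the glycolytic enzyme phosphoglycerate kinase 1, was detected on all 6 KO_untreated arrays and on 0 of 5 WT_untreated arrays. Its levels had a lowest value of 6.66, a median of 6.97 and a highest value of 7.39 in KO_untreated, against 4.49, 4.31, 4.35, 4.43 and 4.62 in WT_untreated, at least 4.97-fold higher (adjusted p = 1.17e-11). A second Pgk1 probe, at a much higher level, differed by 0.06 (adjusted p = 0.80). The files do not give the sequence that the first probe reads, so its signal may not be that of the Pgk1 transcript, which was not tested. In all, 5 probes of 4 genes were detected on every KO_untreated array and no WT_untreated array, and 38 probes the other way round. Of the 38, 31 passed, where 5.35% of all tested probes were lower in KO_untreated. Both sets were picked by detection on the same arrays, so their passes are no separate support. The 38 include probes of Usp15, Phip, Orc4 and Ptpn2, and their bounds were 1.08- to 1.67-fold.

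Genes next to Pigr on chromosome 1 were examined as well, in the gene order of GRCm38.p6. Of 49 tested genes within 100 annotated genes on either side, 2 rose and 6 fell, against 6.27% and 5.74% of all genes. Sox13, a transcription factor gene 81 genes away, had the smallest adjusted p of them (log2 -1.24, SE 0.19, adjusted p = 0.000662). Insig2, which holds the sterol sensor in the endoplasmic reticulum and lies 82 genes from Pigr, was read by 1 probe at a lowest value of 6.73, a median of 6.88 and a highest value of 7.24 in KO_untreated, against 8.41, 8.14, 8.43, 8.27 and 8.68 in WT_untreated (2.77-fold lower, adjusted p = 1.95e-05). A brighter Insig2 probe, the one counted among the 49, differed by -0.37 (adjusted p = 0.0877). Likewise 1 of 3 Kdm5b probes passed (log2 -1.28, adjusted p = 1.95e-05), and the others differed by 0.28 and -0.30. Insig2, Kdm5b, Sox13, Ctse and Pgk1 were chosen after their values were seen.

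The same contrast on the antibiotic-treated mice, which shares no array with the untreated one, gave far fewer calls. No array of that contrast carries the suffix that 5 KO_untreated arrays have, so the contrasts differ in that as well as in the treatment. There 6 probes passed (0.03%), those of Pigr, Insig2, Kdm5b, Sox13, Ctse and Pgk1, of which Kdm5b lies 126 and Ctse 22 genes from Pigr on chromosome 1. At an unadjusted p under 0.05, 654 probes passed. The sizes of the KO differences differed between untreated and treated mice past the threshold for 2 probes (0.01%), with 1755 at an unadjusted p under 0.05. Of the 1286 genes called in untreated mice, 1089 (84.7%) had the same sign with antibiotics, against 63.8% of the 9419 genes not called. Their differences were small there, with a median of 0.14 for genes that rose and -0.20 for genes that fell, against 0.65 and -0.85 untreated. Genes picked for passing in 1 contrast tend to differ less in another, and the part of that choice here was not tested.

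Mcpt1 averaged 6.02 ± 1.22 in KO_antibiotic (SD, n = 6) and 5.83 ± 0.57 in WT_antibiotic (SD, n = 5), both nearer the low WT_untreated arrays than the KO_untreated ones. Pla2g2a averaged 8.59 ± 0.68 in KO_antibiotic and 6.70 ± 0.43 in WT_antibiotic, a difference of 1.90 (adjusted p = 1), and Retnlb averaged 11.31 ± 1.72 and 9.50 ± 0.54 in the same order. Sult1d1 averaged 9.90 ± 0.68 in KO_antibiotic and 10.31 ± 0.43 in WT_antibiotic. Srebf2 differed by 0.11 and Fdps by -0.02 with antibiotics (adjusted p = 1 for each). None of these differences passed with antibiotics, and the interaction did not pass for any of these 6 genes.

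**Figure D5:**
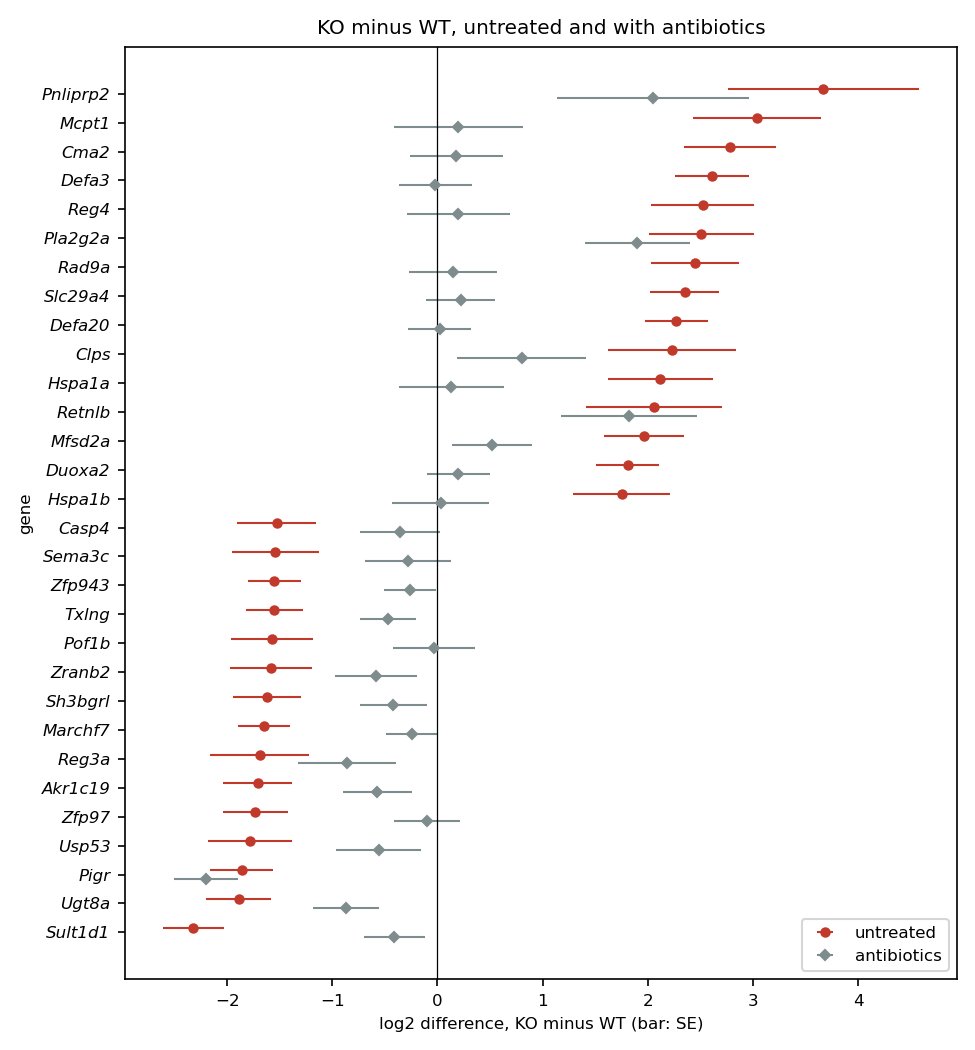
Log2 difference, KO minus WT (horizontal axis), with its standard error for Pigr, the 15 genes with the largest rises and the 14 others with the largest falls (rows), in untreated mice (red circles) and in mice given antibiotics (grey diamonds). Pigr is at -1.86 untreated and -2.20 with antibiotics, while most other genes, which were picked by their untreated differences, lie nearer 0 with antibiotics.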

How the data were processed

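RNA of colon epithelium was measured on 22 arrays in 4 groups, set by the labels. Per the file headers, the deposited scanner table holds for each of 45281 probes a mean bead signal (linear intensity, background not subtracted) and a detection p-value. The authors' processed table holds intensity values whose 22 columns contain the same sorted values (median 52.0), so quantile normalisation was read from the values. The labels name no software for this step.

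All 22 arrays went through neqc (background correction, offset 16, quantile normalisation) in limma 3.58.1 with R 4.3.3. A probe was tested if 5 or more arrays had its detection p-value under 0.05, which left 19993. One fit (lmFit, eBayes) gave KO minus WT untreated, KO minus WT with antibiotics, and their difference, two-sided, with Benjamini-Hochberg adjustment over all tested probes. The median standard error was 0.177, and precision depends on the spread of each probe and on how many arrays there were. The labels do not say that arrays came from separate mice, so a p-value reflects only how these samples spread, which may be technical. No 2 arrays held identical values.

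The platform annotation gave 34885 probes 1 symbol, 18 several and 10378 none, and only the first were named. Named are Pigr, the 15 largest rises and 15 largest falls, and up to 4 members per list with the smallest p, passing over predicted genes and clones. A gene is read through its tested probe of highest mean level. A probe undetected on all arrays of 1 group has only a bound, given as at least the fold against the lowest detected signal. Members and lists were chosen with earlier results of these data known. Alternatives were no background correction, median scaling, the authors' table, other filters, a replicate block, array weights, a mean over each gene's probes, a fit of the compared groups alone, KO_untreated 1 as the only KO_untreated array, and leaving out single arrays.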

Additional observations from a re-analysis of the deposited data

Results flagged for a closer look

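Among 60 groups of arrays tested (30 genes in KO_untreated and WT_untreated), 1 array stood far from the others, where chance alone gives about 1 in 20. Pigr on WT_untreated 3 was at 12.50, with the nearest WT_untreated array at 11.78, a gap of 0.807 of the group's range.

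The KO difference was larger in untreated than in antibiotic-treated mice for 2 probes by the interaction test. For an unnamed probe, ILMN_1254739, the difference of differences was 3.21 (adjusted p = 0.0129), with levels of 6.79 to 9.35 in KO_untreated and 4.24 to 5.74 in WT_untreated. For the Defa3 probe ILMN_2524832 it was 2.71 (adjusted p = 0.0148), with a KO difference of 2.77 untreated and 0.06 with antibiotics. The Defa3 probe named in the report, which is brighter, gave 2.63 (adjusted p = 0.0689). Each of these probes was detected on 6 KO_untreated and 2 WT_untreated arrays. The KO_untreated arrays alone let them be tested, so their p-values are no separate support.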

How the results depend on the processing

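The count of 2180 probes past the threshold was between 856 and 2081 with 1 array left out (leaving out KO_untreated 1 gave 856, KO_untreated 5 gave 1062, WT_untreated 5 gave 1069, WT_untreated 4 gave 1152 and WT_untreated 1 gave 1401). It was 319 with median scaling over all probes (240 higher, 79 lower), a scaling that moved the median of all genes to 0.13 from 0.05. It was 982 without a filter on dim probes, where 45281 probes were tested, 1431 with probes averaged per gene (10705 tested) and 225 with KO_untreated 1 as the only KO_untreated array, which is then assumed to vary like the other groups. It stayed within 1.5 times the count with median scaling over detected probes (2063, 947 higher and 1116 lower), no background correction (2151), the authors' table (2149), a detection p under 0.01 (2217), array weights (3262) and only the groups compared (3264). With antibiotics the count of 6 was 2 with median scaling over all probes and 5 to 12 with 1 array left out. The interaction count of 2 was 0 with no background correction, median scaling over all probes, the authors' table, no filter or probes averaged per gene, 17 with array weights, 13 with KO_untreated 1 as the only KO_untreated array and 1 to 22 with 1 array left out. At an unadjusted p under 0.05, limma gave 1797, 746, 1795, 2967 and 997 probes where the interaction count was 0. Of 178 named genes past the threshold, 71 kept their call with median scaling over all probes, 104 without a filter, and 111 without KO_untreated 1. The only sign that turned was that of Fcer1a, -0.19 (adjusted p = 0.739) with KO_untreated 1 as the only KO_untreated array. The causes were not tested. The interaction count of 22 came without WT_untreated 3.

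With the replicate number as a block, 3358 probes passed. Deviations of KO_untreated and WT_untreated arrays of the same number correlated at 0.173, -0.0372, -0.287, 0.142 and -0.0807, so the numbers do not pair the arrays. No slide is named in the files, so that block was not run. The number of arrays and signal near background limit the dim genes named.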

Other observations

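The Y-linked gene Eif2s3y was above background on all 11 untreated arrays at 7.06 to 8.48 in KO_untreated, against 8.94, 9.17, 9.90, 9.27 and 9.02 in WT_untreated. The groups did not overlap (log2 -1.48, adjusted p = 0.0675). KO_antibiotic 3, also labelled male, had Eif2s3y at 4.78 and Kdm5d at 4.52, against at least 7.06 and 5.85 on every other array. Without that array, 5 probes passed in the comparison with antibiotics and 2 in the interaction. It also entered the shared normalisation and the shared estimate of spread behind the untreated calls, and 3264 probes passed when only the untreated groups were fitted.

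Von Willebrand factor, a gene of the endothelium, rose in KO_untreated. Vwf had levels with a lowest value of 6.34, a median of 6.51 and a highest value of 6.81 in KO_untreated, against 5.13, 5.09, 5.63, 5.94 and 5.19 in WT_untreated (log2 1.12, adjusted p = 0.00425). Of 10 tested markers of stroma, muscle and endothelium, 2 rose and 1 fell, with a median of -0.18. The other rise was that of the fibronectin gene Fn1 (log2 1.20, adjusted p = 0.00783), and the decorin gene Dcn fell (log2 -1.27, adjusted p = 0.0489). The call of Dcn did not hold when any 1 array other than KO_untreated 3 or WT_untreated 3 was left out (adjusted p up to 0.112), and it was lost with median scaling over all probes. Col1a1, Col3a1 and Pdgfra of the same list of stromal, muscle and endothelial markers were undetected on all 11 arrays, and the summed signal of the list was 270 to 546 on KO_untreated arrays and 286 to 491 on WT_untreated arrays. Lpl, lipoprotein lipase, was lower in KO_untreated (2.56-fold, adjusted p = 0.00492).

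Genes induced by interferon gave 4 rises (Ifitm1, Ifitm3, Oas1a and Zbp1) and 0 falls of 40 tested, where 6.27% of all genes rose. With median scaling over all probes 2 rose, and the calls of Oas1a and Zbp1 were lost. Ifitm1, which restricts viral entry, had levels with a lowest value of 10.61, a median of 10.85 and a highest value of 12.27 in KO_untreated, against 9.0, 9.15, 10.91, 10.15 and 9.66 in WT_untreated (2.78-fold, adjusted p = 0.00793). WT_untreated 3 lay within the KO_untreated range. The count was 1 without KO_untreated 5 or WT_untreated 1 or 2, and 2 without KO_untreated 1 or 4 or WT_untreated 5.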
